A study of Mus musculus with 18 samples.

Results

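The major urinary protein genes of the mouse (Mup genes) form a cluster of near copies on chromosome 4, and 8 of them are described here in liver RNA: Mup1, Mup2, Mup3, Mup7, Mup15, Mup17, Mup20 and Mup21. They were listed by symbol, out of 22 Mup symbols among the 25266 gene symbols of the data, after earlier results of the same mice were known. All 8 passed the filter on low values (a mean RPKM over the 18 mice of at least 0.5), as did 11090 genes in all. RPKM is the number of reads of a gene, scaled to its length and to the mapped reads of the library. The genes were chosen by their RPKM in all 4 groups and the comparisons between them, so their values are given as a description, with no p-value printed for any of them. Their symbols name 1 gene family, so shared sequence follows from the listing and is given as a description too.

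Livers came from male mice on a C57BL/6 background, and each of the 18 samples was a different mouse. FF mice carried a floxed Ppp6r3, the gene of SAPS3, a regulatory subunit of protein phosphatase 6. LKO mice carried the same floxed gene plus Cre under the promoter of albumin, a hepatocyte gene, which the study describes as specific to the liver. Mice were 8 weeks old at the start and received a control diet (CD, 10 kcal% fat) or a high-fat diet (HFD, 32.5 kcal% fat), the latter for 16 weeks. Each genotype had 4 mice on CD and 5 on HFD, and the study asked how loss of SAPS3 in the liver alters the response to HFD. Ppp6r3 was at 8.38 to 11.0 RPKM in FF mice on CD and 7.55 to 8.82 on HFD, and at 3.88 to 4.08 and 4.22 to 4.87 in the LKO mice. Depth, recovered from the steps between low values, was 23400000 to 36800000 reads per mouse, and 9285 to 10000 genes per mouse were at 1 RPKM or more.

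Major urinary proteins are small lipocalins, a family of barrel-shaped carriers of greasy molecules. The liver of the mouse secretes them into blood, the kidney passes them into urine, and there they bind and slowly release volatile pheromones. Their genes are expressed more highly in males than in females, under control of pulsed growth hormone acting through STAT5, and also respond to androgens, thyroid hormone, glucocorticoids and nutrition. Mup20 encodes darcin, a male pheromone that is itself attractive to females. Circulating MUP1 has also been studied as a regulator of glucose and lipid metabolism.

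In the GENCODE annotation of GRCm38 the 22 Mup genes lie between chr4:59956804 and 62150863, a span of 2.19 Mb with no other protein-coding gene inside, and 21 are on the minus strand. The 8 genes are spread over it, Mup7 at chr4:60066469-60070475, Mup2 at chr4:60135932-60154289, Mup1 at chr4:60498012-60501960, Mup15 at chr4:61435790-61439743, Mup17 at chr4:61591929-61595871, Mup20 at chr4:62050234-62054158, Mup3 at chr4:62083476-62087342 and Mup21 at chr4:62147932-62150863. Each has 7 exons except Mup21, which has 6. Their coding sequences are 540 bases long in Mup1, Mup2, Mup7, Mup15 and Mup17, 543 in Mup20 and Mup21, and 552 in Mup3.

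How far the copies can be told apart is seen in a stretch of 60 coding bases, shown because the reads of the data have to be assigned by such differences. It is coding bases 231 to 290 of the genes of 540 bases, 234 to 293 of Mup20 and Mup21, and 243 to 302 of Mup3, read on the coding strand, 5′ to 3′, from GRCm38. Capitals mark bases that differ from the commonest base among the 8 genes.
Mup7: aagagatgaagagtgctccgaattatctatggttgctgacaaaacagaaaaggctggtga
Mup17: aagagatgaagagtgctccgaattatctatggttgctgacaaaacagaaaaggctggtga
Mup1: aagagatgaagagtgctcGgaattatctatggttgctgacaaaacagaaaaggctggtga
Mup2: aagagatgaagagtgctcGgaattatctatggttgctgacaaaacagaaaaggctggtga
Mup15: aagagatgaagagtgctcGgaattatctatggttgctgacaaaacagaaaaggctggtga
Mup20: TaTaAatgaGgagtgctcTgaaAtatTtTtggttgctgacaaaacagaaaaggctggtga
Mup3: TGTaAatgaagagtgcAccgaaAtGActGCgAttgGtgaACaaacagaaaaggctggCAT
Mup21: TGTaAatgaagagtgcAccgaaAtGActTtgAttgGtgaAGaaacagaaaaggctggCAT

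Mup7 and Mup17 are the same over these bases, and so are Mup1, Mup2 and Mup15, which depart from the commonest base at 1 position. Mup20 departs at 8 positions, Mup21 at 16 and Mup3 at 17. Over the whole coding sequence, the 5 genes of 540 bases were 98.5% to 99.6% identical to each other. Mup20 was 90.6% to 91.5% identical to those 5, and Mup3 and Mup21 were 83.9% to 85.0% identical to them and 96.3% to each other.

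The share of a transcript's 50-base stretches that occur in no other gene's transcript was 84.4% for Mup3, 80.7% for Mup21 and 49.5% for Mup20. It was 21.9% for Mup17, 9.76% for Mup7, 5.24% for Mup1, and 0% for Mup2 and Mup15. A read of such length from most of Mup1, Mup2, Mup7, Mup15 or Mup17 therefore matches several genes, and how the authors assigned these reads is not given in the sources used here. The 5 are called the near-identical genes below, and Mup20, Mup3 and Mup21 the distinct ones. With stretches of 100 bases Mup2 and Mup15 were both at 2.66% and Mup17 was at 40.6%.

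The genes also share the sequence before their start. RefSeq promoters (GRCm38.p6, 250 bases before to 50 after the start) were at hand for 6 of the 8 genes, Mup1 and Mup20 being the others. The 100 bases up to a TATATAA box, in capitals, are shown 5′ to 3′ for the 5 genes that have the box, all on the minus strand, because the near-identical genes differ there from Mup3 and Mup21 as they do in the transcript.
Mup2, chr4:60139877-60139983: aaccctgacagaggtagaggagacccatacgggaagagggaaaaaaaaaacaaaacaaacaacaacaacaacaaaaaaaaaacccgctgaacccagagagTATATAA
Mup15, chr4:61439723-61439829: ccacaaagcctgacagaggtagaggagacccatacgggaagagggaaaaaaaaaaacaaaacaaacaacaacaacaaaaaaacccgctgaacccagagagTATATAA
Mup17, chr4:61595851-61595957: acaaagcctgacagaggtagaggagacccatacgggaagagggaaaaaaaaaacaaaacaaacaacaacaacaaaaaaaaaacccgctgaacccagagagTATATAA
Mup3, chr4:62087322-62087428: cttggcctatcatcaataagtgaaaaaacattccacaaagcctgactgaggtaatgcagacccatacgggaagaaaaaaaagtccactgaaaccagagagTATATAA
Mup21, chr4:62150843-62150949: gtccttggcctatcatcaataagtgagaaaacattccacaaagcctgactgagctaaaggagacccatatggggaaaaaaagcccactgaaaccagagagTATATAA

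TATATAA, searched on both strands, was in 13 of 14 Mup promoters and in 3.24% of all 32851 promoters of that length, and the window of Mup7 lacks these letters. The motif TTCNNNGAA, the usual form bound by STAT5, was in 0 of the 14 and in 8.30% of all. The wider form with 1 more base N in the middle was in 5 of the 14, among them Mup7, and in 6.95% of all. TATAAA was in 2 of the 14, neither of them one of the 8 genes, and in 13.6% of all. The promoters are near copies of each other, so their matches are not independent.

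Mup20 and Mup3 were among the most abundant transcripts of these livers. Mup20 ranked 2 among all genes by RPKM in every FF mouse on CD and between 2 and 11 over the 18 mice, and Mup3 ranked between 3 and 9. With Mup7 they made up 93.1% to 98.4% of the summed RPKM of the 8 genes. The level of the 8 genes together is therefore mostly that of these genes.

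The summed RPKM of the 8 genes was 30838, 38436, 37087 and 29383 in the FF mice on CD, which was 7.97% to 10.0% of all RPKM of those mice. It was 19410, 15183, 19982 and 12200 in the LKO mice on CD. On HFD it was 16498, 9325, 7832, 11339 and 10117 in FF mice. In LKO mice on HFD it was 16710, 17852, 21182, 31801 and 19665.

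Every FF mouse on CD was thus above every LKO mouse on CD and every FF mouse on HFD. On HFD the order of the genotypes was the opposite, with each LKO mouse above each FF mouse, although the lowest LKO mouse (16710) and the highest FF mouse (16498) were close. The mean was 33936 ± 4491 (SD, n = 4) in FF on CD, 16694 ± 3682 (n = 4) in LKO on CD, 11022 ± 3315 (n = 5) in FF on HFD and 21442 ± 6037 (n = 5) in LKO on HFD.

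**Figure D1:**
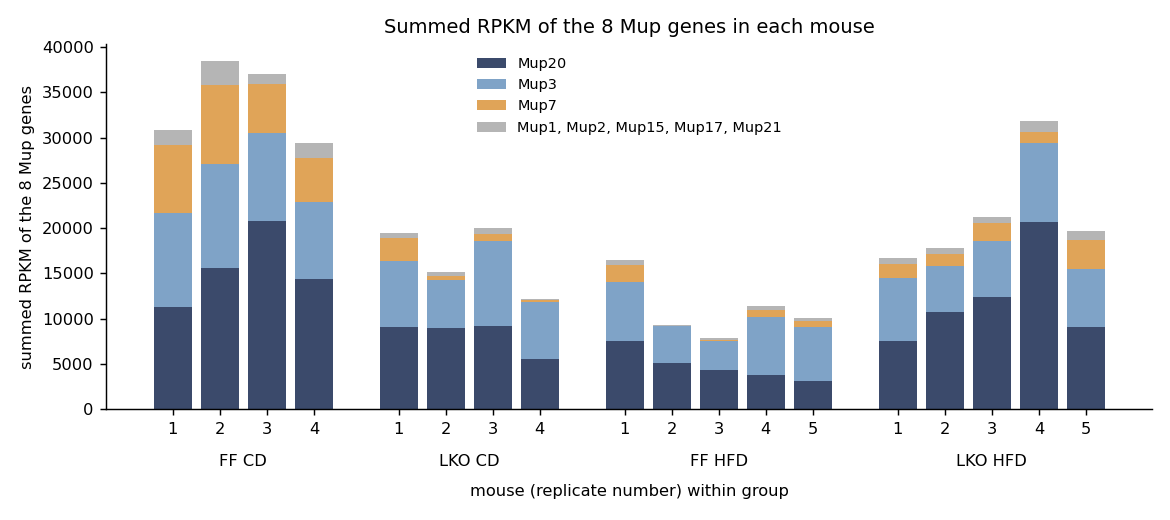
Summed RPKM of the 8 Mup genes (vertical axis) in each of the 18 mice, in the order of the replicate numbers within each group. Colours split each bar into Mup20, Mup3, Mup7 and the other 5 genes; the FF mice on CD sit between 29383 and 38436, above the other groups except 1 LKO mouse on HFD at 31801.

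On the log2 scale the sum differed between LKO and FF by -1.04 ± 0.24 (SE) on CD and by 0.97 ± 0.22 on HFD. The difference between HFD and CD was -1.66 ± 0.23 in FF mice and 0.35 ± 0.23 in LKO mice. In bulk tissue, fewer cells of a type and less RNA per cell cannot be told apart. These 4 comparisons share their groups: a low FF value on HFD enters both the diet comparison in FF mice and the genotype comparison on HFD.

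Each gene was then fitted with limma on log2(RPKM + 1) together with all 11090 genes, and was called where the fold change was over 1.5 and the adjusted p under 0.05. On CD, 2 of the 8 genes were called lower in LKO than in FF mice (Mup15 and Mup17), where 0.135% of all genes tested were called lower. On HFD, 2 were called higher in LKO mice (Mup20 and Mup21), beside 0.902% of all genes. HFD against CD in FF mice called 6 lower (Mup3, Mup7, Mup15, Mup17, Mup20 and Mup21), beside 1.49%. In LKO mice the same comparison called 0 of 8 with limma, beside 1.27% of all genes in either direction. An unadjusted p under 0.05 was reached by 3 of the 8, beside 2475 of all 11090 genes. Nothing is read from this count, since the 8 were listed with these comparisons in view. The diet response in LKO minus that in FF mice was called above 0 for 5 genes (Mup7, Mup15, Mup17, Mup20 and Mup21), beside 0.947%.

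The direction was shared more widely than the calls. All 8 fold changes were below 0 for LKO against FF on CD (median log2 fold change -2.72, against 0.03 over all genes tested) and for HFD against CD in FF mice (-2.37, against 0.07). All 8 were above 0 for LKO against FF on HFD (1.02, against 0.03), and 6 of 8 for HFD against CD in LKO mice (1.24, against 0.07), the exceptions being Mup1 and Mup3. Groups that did not overlap were fewer: each LKO value was below each FF value on CD for 5 genes, beside 1.7% of all genes, each HFD value was below each CD value in FF mice for 5, beside 4.24%, and each LKO value was above each FF value on HFD for 2, beside 2.65%. Since the genes were listed with these contrasts in view, nothing is read from the counts.

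**Figure D2:**
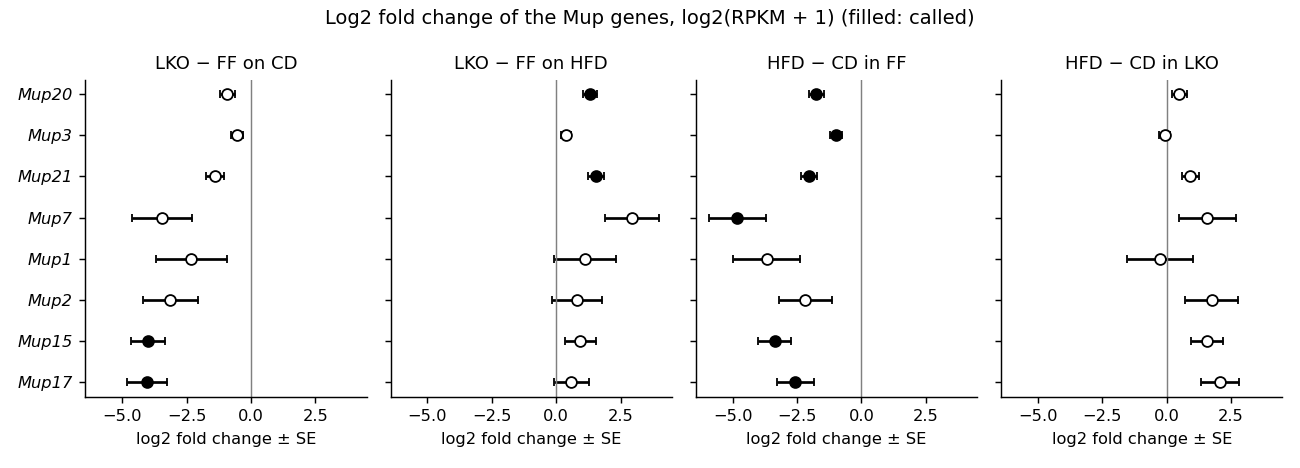
Log2 fold change of each of the 8 Mup genes on the log2(RPKM + 1) scale (horizontal axis; points, estimates; bars, SE) in the 2 genotype and the 2 diet comparisons, filled where called. In LKO against FF every point is left of 0 on CD and right of 0 on HFD, and the bars of Mup20, Mup3 and Mup21 are the shortest.

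Mup20, the darcin gene, had the highest mean level of the 8 over all mice. It was at 11331, 15611, 20773 and 14415 RPKM in FF mice on CD, and at 9075, 8989, 9136 and 5577 in LKO mice on CD. On HFD it was at 7482, 5060, 4336, 3768 and 3086 in FF mice and at 7552, 10684, 12435, 20650 and 9061 in LKO mice. The FF mice on CD did not overlap with either of those groups that differ from them in 1 factor, and on HFD the genotypes were separated by the small gap between 7482 and 7552.

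The log2 fold change of Mup20 between LKO and FF was -0.92 ± 0.30 (SE) on CD, a fold of 0.529, and 1.32 ± 0.26 on HFD, a fold of 2.50. Between HFD and CD it was -1.74 ± 0.28 in FF mice and 0.50 ± 0.28 in LKO mice. Without the low-value filter, the call on HFD between genotypes was lost, at the same fold change.

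Mup3, whose transcript is the most distinct of the 8, had the smallest fold change of the 8 in each comparison. FF mice on CD were at 10387, 11514, 9792 and 8522 RPKM, and LKO mice on CD at 7304, 5254, 9436 and 6302. FF mice on HFD were at 6542, 4096, 3228, 6373 and 5970, and LKO mice on HFD at 6944, 5118, 6111, 8777 and 6377. FF mice on CD were all above FF mice on HFD, a log2 fold change of -0.98 ± 0.22 that quantile normalization reduced to -0.42 and no longer called.

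The genotypes overlapped for Mup3 on both diets: 1 LKO mouse on CD, at 9436, lay within the FF range, and on HFD most mice of both genotypes were between 5118 and 6944. Its log2 fold changes between LKO and FF were -0.53 ± 0.23 on CD and 0.38 ± 0.20 on HFD. Mup20 and Mup3, neighbours in the cluster, therefore differed in their ratio, which was 1.56 ± 0.45 (SD, n = 4) in FF and 1.20 ± 0.37 (n = 4) in LKO mice on CD, and 0.97 ± 0.38 (n = 5) and 1.80 ± 0.52 (n = 5) on HFD. The ranges of the ratio overlapped between the genotypes on both diets.

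Mup21, next to Mup3 in the cluster and nearest to it in sequence, was expressed at a lower level. It was at 672, 933, 803 and 789 RPKM in FF mice and 374, 243, 507 and 177 in LKO mice on CD. On HFD it was at 410, 135, 134, 198 and 183 in FF mice and at 443, 596, 442, 1001 and 518 in LKO mice. FF mice were above LKO mice on CD and below them on HFD, without overlap.

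The log2 fold change of Mup21 between LKO and FF was -1.40 ± 0.34 on CD and 1.56 ± 0.31 on HFD, and between HFD and CD it was -2.03 ± 0.33 in FF and 0.92 ± 0.33 in LKO mice. On CD it was called only without FF mouse 1 on HFD or without LKO mouse 3 on CD. The calls on HFD, in FF mice and for the difference between the diet responses were made in each fit that left out 1 mouse.

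**Figure D3:**
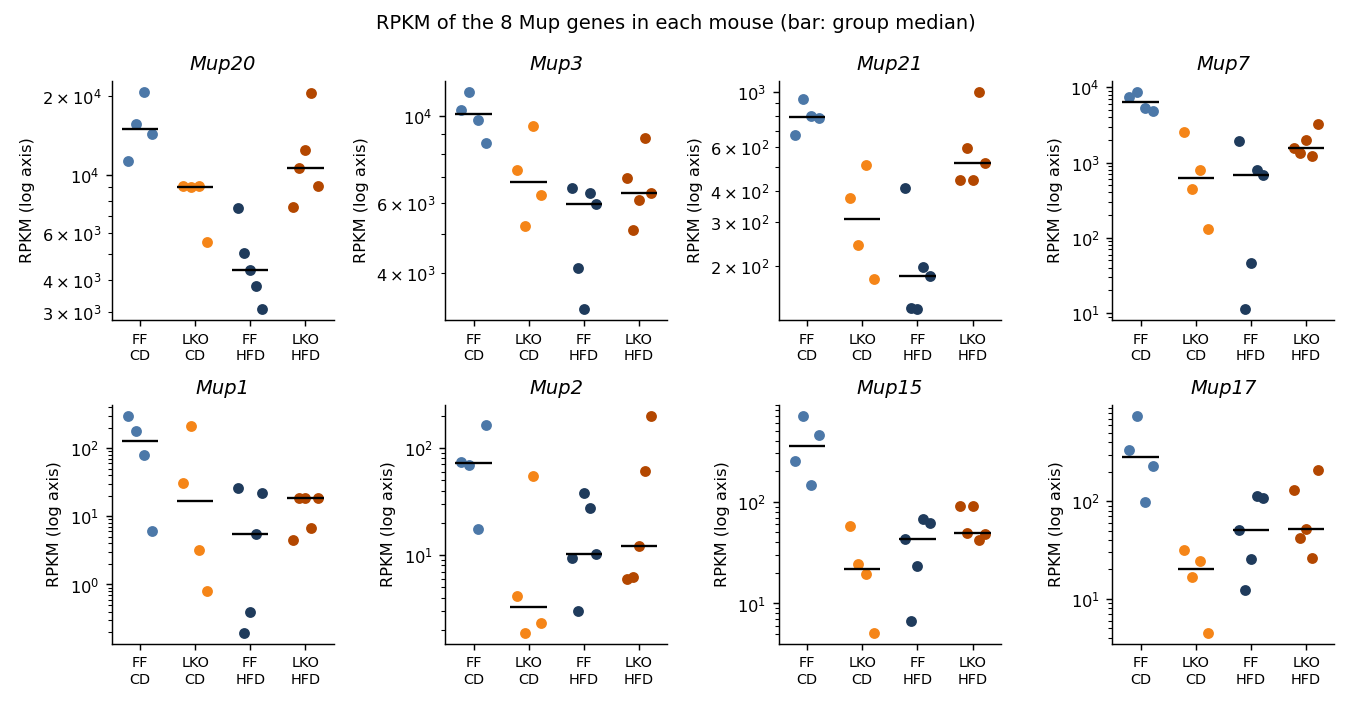
RPKM of each of the 8 Mup genes (vertical axes, log scale) by mouse (points) in the 4 groups, with bars at the group medians. FF mice on CD are highest by median for every gene. The groups of Mup20, Mup3 and Mup21 are tighter than those of most near-identical genes. In the latter, some mice lie far below others of their group, such as Mup7 at 11.3 and 46.7 in FF mice 2 and 3 on HFD.

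Of the near-identical genes, Mup7 had the highest level. In FF mice on CD it was at 7486, 8669, 5377 and 4801 RPKM, and in LKO mice on CD at 2533, 444, 802 and 130. In FF mice on HFD it was at 1934, 11.3, 46.7, 787 and 675, and in LKO mice on HFD at 1539, 1337, 2021, 1238 and 3235. FF mice on CD were above both of these groups without overlap, and on HFD only the FF mouse at 1934 reached the LKO range.

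FF mice on HFD thus spanned a ratio of 171 between the highest and the lowest Mup7 value, against 1.81 in FF mice on CD and 2.61 in LKO mice on HFD. The log2 fold change between LKO and FF was -3.45 ± 1.17 on CD and 2.95 ± 1.05 on HFD, neither called, and on HFD it was called without FF mouse 1. The difference of the diet responses, 6.40 ± 1.57, lost its call without the low-value filter or variance moderation, and when any 1 of 8 mice was left out: FF mice 1, 2 and 3 and LKO mice 2 and 4 on CD, and FF mouse 3 and LKO mice 3 and 5 on HFD.

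Mup15 and Mup17, whose reads can be shared, were at lower levels. They correlated over the 18 mice (Pearson's r = 0.91 of log2(RPKM + 1)), while the ratio of Mup17 to Mup15 ran from 0.506 to 4.25. Mup15 was at 255, 706, 147 and 456 RPKM in FF and 57.7, 24.4, 19.6 and 5.14 in LKO mice on CD, and at 43.3, 6.71, 23.3, 67.3 and 62.0 in FF and 90.9, 49.2, 90.2, 41.9 and 48.6 in LKO mice on HFD. Mup17 was at 333, 752, 99.2 and 231 in FF and 31.5, 16.7, 24.2 and 4.49 in LKO mice on CD, and at 50.7, 12.4, 25.5, 112 and 108 in FF and 132, 42.5, 52.2, 26.5 and 207 in LKO mice on HFD. On CD the genotypes were apart for both genes, and on HFD they overlapped for both.

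The log2 fold changes between LKO and FF on CD were -4.00 ± 0.67 for Mup15, a fold of 0.0627, and -4.04 ± 0.77 for Mup17, a fold of 0.0607. Both calls were lost without the low-value filter, without variance moderation and without FF mouse 2 on CD, which had the highest value of each gene, and that of Mup17 also without FF mouse 1 or 4 or LKO mouse 2 or 4 on CD. On HFD the differences were 0.93 ± 0.60 and 0.59 ± 0.68. Between HFD and CD they were -3.36 ± 0.64 and -2.56 ± 0.73 in FF mice, the latter not called without FF mouse 2 of either diet, and 1.57 ± 0.64 and 2.07 ± 0.73 in LKO mice. The difference between the diet responses was 4.92 ± 0.90 for Mup15 and 4.63 ± 1.03 for Mup17, and the latter was not called without LKO mouse 4 on CD, the low-value filter or variance moderation.

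Mup1 and Mup2 were called in none of the 5 comparisons and overlapped between groups in each. Mup1 was at 300, 180, 78.8 and 6.13 RPKM in FF and 30.6, 210, 3.24 and 0.815 in LKO mice on CD, and at 26.2, 0.195, 0.388, 5.57 and 21.8 in FF and 4.53, 18.8, 18.6, 6.62 and 18.7 in LKO mice on HFD. Mup2 was at 73.6, 69.5, 17.3 and 164 in FF and 4.16, 1.88, 54.3 and 2.31 in LKO mice on CD, and at 9.35, 3.00, 38.1, 27.5 and 10.3 in FF and 5.99, 6.22, 12.2, 60.3 and 200.1 in LKO mice on HFD. The LKO mice on CD within the FF range were those at 30.6 and 210 for Mup1 and the one at 54.3 for Mup2.

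Their log2 fold changes carried SEs of about 1 or more: -2.31 ± 1.36 (Mup1) and -3.13 ± 1.08 (Mup2) between LKO and FF on CD, 1.12 ± 1.22 and 0.80 ± 0.97 on HFD, and -3.68 ± 1.29 and -2.18 ± 1.02 between HFD and CD in FF mice. In LKO mice the diet differences were -0.25 ± 1.29 and 1.74 ± 1.02. For HFD against CD in FF mice, Mup1 was called without FF mouse 4 or LKO mouse 2 or 4 on CD, and without FF mouse 1 or 5 on HFD. It was also called with centring on the median, quantile normalization, the replicate block and either rescaling of the RPKM sums.

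Among the genes described, the spread between mice of a group was larger in the near-identical ones than in Mup20, Mup3 and Mup21. The pooled SD of log2(RPKM + 1) within groups was 0.34 for Mup3, 0.46 for Mup20 and 0.54 for Mup21, and 1.08 for Mup15, 1.23 for Mup17, 1.73 for Mup2, 1.88 for Mup7 and 2.19 for Mup1. Within the near-identical genes and over the family, the spread did not follow the share of unique stretches. Mup15, at 0%, had the lowest SD of the near-identical genes. Mup10, of which 13.8% of stretches are unique, had an SD of 0.40, Mup8, at 13.1%, had 3.49, and Mup6, at 95.7%, had 0.85. The lowest value of Mup7 corresponds to about 302 reads and that of Mup17 to about 113. For Mup1 the lowest value was about 4.69 reads.

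**Figure D4:**
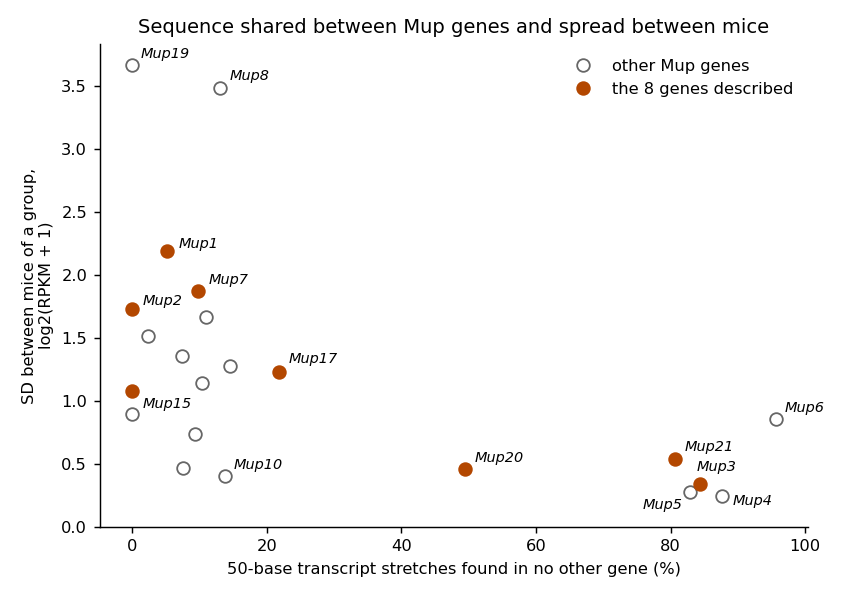
For the 22 Mup genes, the percentage of 50-base transcript stretches found in no other gene (horizontal axis) against the SD of log2(RPKM + 1) between mice of a group, pooled over groups (vertical axis); filled points are the 8 genes described. Mup3, Mup20 and Mup21 lie below 0.55, and the 5 near-identical genes lie between 1.08 and 2.19.

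Rows whose reads cannot be told apart were also read as 1 sum. The sum of the 16 Mup symbols with under 25% of unique stretches, the 5 genes included, was 8706 to 15661 RPKM in FF and 1033 to 4448 in LKO mice on CD, and 625 to 3917 in FF and 2829 to 5812 in LKO mice on HFD. Its pooled SD was 0.80, below that of each of the 5 genes. The sum of the 5 genes alone had a pooled SD of 1.57, above that of Mup15 (1.08) and Mup17 (1.23). In the sum of the 16, FF and LKO mice were apart on CD, a log2 difference of -2.51 ± 0.57, and FF mice on CD and HFD were apart, at -2.76 ± 0.54. On HFD the genotypes overlapped and differed by 1.22 ± 0.51.

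The near-identical copies as a whole thus differed from FF mice on CD by more than the sum of the 8 genes, which is dominated by Mup20 and Mup3. The ratio of Mup7 to Mup3 was 0.647 ± 0.105 (SD, n = 4) in FF mice on CD, 0.134 ± 0.145 (n = 4) in LKO mice on CD, 0.110 ± 0.118 (n = 5) in FF mice and 0.292 ± 0.138 (n = 5) in LKO mice on HFD. FF mice on CD, at 0.549 or more, were above all other mice in this ratio.

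The other 14 Mup symbols all passed the filter. LKO against FF on CD gave 14 fold changes below 0 and 4 called lower (Mup4, Mup5, Mup13 and Mup16), beside 0.135% of all genes. HFD against CD in FF mice gave 13 below 0 and 8 called lower, beside 1.49%. On HFD 11 of 14 were above 0 for LKO against FF, with 0 called by limma. An unadjusted p under 0.05 was reached by 4, beside 2145 of all 11090 genes tested. Of these 14, 11 have under 25% of unique stretches, so that their reads can be shared with the 8 genes. Mup4, Mup5 and Mup6 are distinct, with 87.6%, 82.9% and 95.7% of unique stretches. The rest of their stretches occur in other genes, and Mup4 was at only about 15.2 to 128 reads per mouse. The part of shared reads in their values was not tested. Mup4 was at 3.55 to 4.83 RPKM in FF and 1.15 to 1.95 in LKO mice on CD, and Mup5 at 3.86 to 5.36 and 1.29 to 2.24, without overlap. Of all genes, 1.7% had each LKO value below each FF value on CD. Between LKO and FF on CD the log2 fold change was -1.01 ± 0.16 for Mup4 and -1.05 ± 0.18 for Mup5, and between HFD and CD in FF mice it was -1.10 ± 0.15 and -0.80 ± 0.17. Mup22, Mup8 and Mup6 had the highest mean levels among them.

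Mup6 lies at the other end of the cluster, and most of its stretches match no other gene. It was at 1103, 1552, 1060 and 443 RPKM in FF and 470, 205, 160 and 142 in LKO mice on CD, and at 436, 113, 66.5, 301 and 468 in FF and 466, 369, 436, 270 and 460 in LKO mice on HFD. Its log2 fold change was -2.13 ± 0.51 between HFD and CD in FF mice, which was called, and -2.12 ± 0.54 between LKO and FF on CD and 0.86 ± 0.48 on HFD, which were not.

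Mup22 ranged from 106 to 1349 RPKM with overlap of all groups, and none of its differences was called. Mup8 ranged from 0.202 to 2049: in each group but FF on CD at least 1 mouse was under 50 RPKM while others were at 165 or more. Its difference between LKO and FF on CD, -5.62 ± 2.17, was larger than that of Mup7 and was not called.

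Of 26 genes listed as regulators of Mup expression (the growth hormone receptor, JAK2, STAT5, their feedback inhibitors and hepatocyte transcription factors), 25 were tested. None was called between LKO and FF on CD, where limma gave 2 at an unadjusted p under 0.05, beside 851 of all 11090 genes. On HFD 2 were called higher in LKO mice, beside 0.902% of all genes. HFD against CD in FF mice called 1 higher and 2 lower, beside 567 and 165 of all genes, and in LKO mice 1 higher, beside 107. The median log2 fold change of the list was between 0.01 and 0.08 in all 5 comparisons. The calls were of Socs2, Foxa3, Bcl6 and Stat5a.

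Socs2, which growth hormone induces through STAT5 and which limits its signal, was at 2.65, 2.20, 2.64, 1.58 and 3.76 RPKM in FF mice on HFD and at 7.69, 4.96, 8.87, 6.04 and 13.4 in LKO mice on HFD, without overlap. The log2 fold change was 1.33 ± 0.33 (limma, adjusted p = 0.0314). The call was lost without FF mouse 2, 3 or 4 or LKO mouse 3 or 5 on HFD, and without the low-value filter or variance moderation. On CD the genotypes overlapped, and the difference was 0.39 ± 0.37 (adjusted p = 0.905).

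Foxa3, a forkhead factor of hepatocytes, was at 9.25, 12.1, 8.65, 11.0 and 9.29 RPKM in FF and 14.1, 17.3, 13.9, 16.7 and 16.1 in LKO mice on HFD, also without overlap. The difference of 0.59 ± 0.15 on the log2 scale was near the limit of a 1.5-fold change (adjusted p = 0.0307), and was no longer called under quantile normalization, centring on the median or either rescaling of the sums, nor without the low-value filter, variance moderation, FF mouse 1, 3 or 5 or LKO mouse 2, 3, 4 or 5 on HFD. In FF mice it was lower on HFD than on CD, with a log2 fold change of -0.80 ± 0.16 (adjusted p = 0.00162).

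Bcl6, a repressor that opposes STAT5 at genes with sex-biased expression, fell in FF mice on HFD, from 7.74, 9.32, 15.1 and 7.53 RPKM on CD to 4.43, 3.44, 7.16, 3.21 and 3.69 (log2 fold change -1.02 ± 0.32, adjusted p = 0.0313 in limma). The call was lost without FF mouse 2 or 3 on CD or FF mouse 2, 4 or 5 on HFD, and without the low-value filter or variance moderation. LKO mice were at 3.05 to 10.8 on CD and 5.01 to 15.0 on HFD. The difference between the diet responses was 1.67 ± 0.45 (adjusted p = 0.0548). Stat5a rose on HFD in both genotypes, by 0.68 ± 0.10 in FF (adjusted p = 0.000261) and 0.62 ± 0.10 in LKO mice (adjusted p = 0.0100), and the difference between these responses was -0.06 ± 0.15 (adjusted p = 0.883). Both calls were lost under quantile normalization, and that in LKO mice also with centring on the median and without LKO mouse 3 on CD or LKO mouse 3 or 5 on HFD.

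Of 17 genes of other lipocalins and related carriers, 9 were tested. Between LKO and FF, none was called on CD, and 2 were at an unadjusted p under 0.05 in limma, beside 851 of all 11090 genes. On HFD 1 was called lower, beside 130 of all genes. Orm3, an orosomucoid of the acute phase response, was at 1.61, 2.89, 6.10, 2.99 and 3.95 RPKM in FF mice on HFD and at 0.483, 1.19, 0.0395, 0.210 and 2.13 in LKO mice on HFD (log2 fold change -1.36 ± 0.27, limma adjusted p = 0.00747), the opposite direction. It rose in FF mice on HFD by 1.22 ± 0.28 (adjusted p = 0.00529).

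Orm2, another orosomucoid, differed by -0.59 ± 0.62 between LKO and FF mice on HFD (adjusted p = 0.629). Apom, the carrier of sphingosine 1-phosphate in HDL, fell in FF mice on HFD from 121 to 195 RPKM on CD to 60.3 to 107 (log2 fold change -0.91 ± 0.17, limma adjusted p = 0.00102). Between LKO and FF on HFD its difference was 0.51 ± 0.16 (adjusted p = 0.0715).

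**Figure D5:**
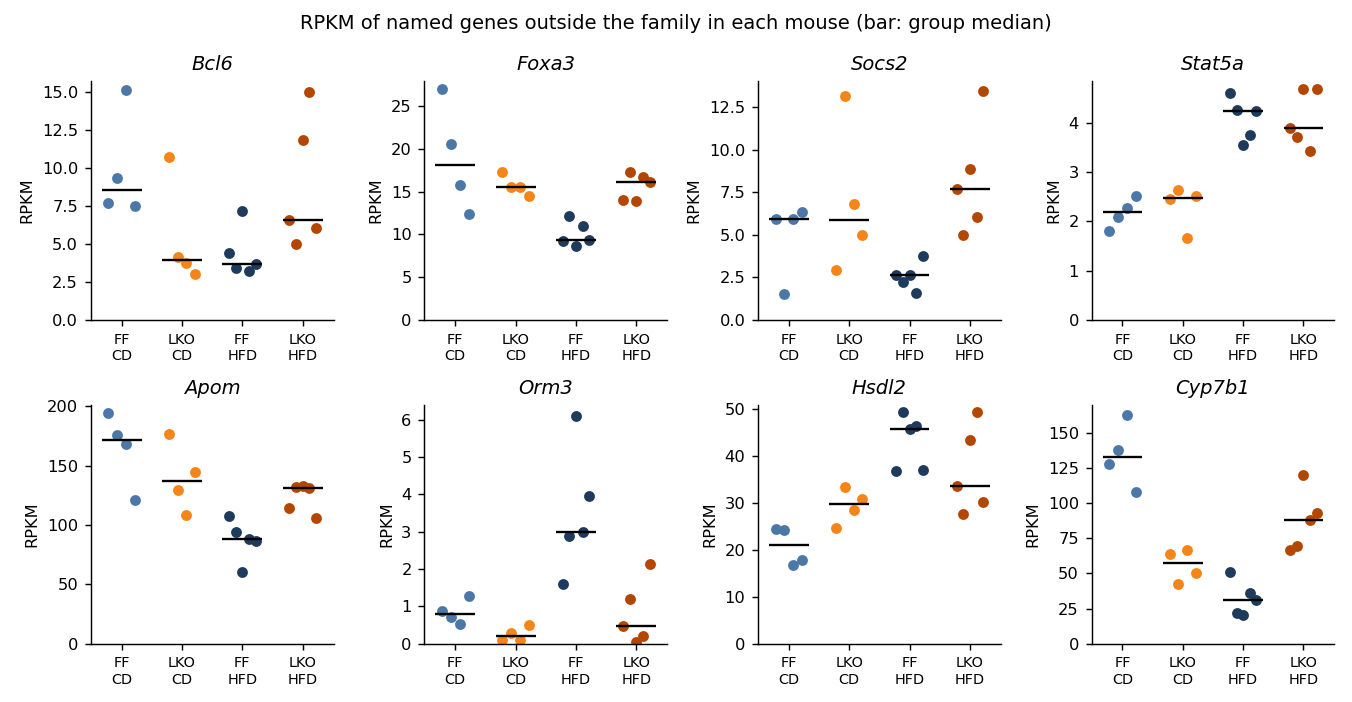
RPKM (vertical axes, from 0) of 8 genes outside the Mup family by mouse (points) in the 4 groups, with bars at the group medians: the regulators Bcl6, Foxa3, Socs2 and Stat5a, the lipocalins Apom and Orm3, Hsdl2 beside the cluster, and Cyp7b1. Socs2 is at 3.76 or less in FF mice on HFD and at 4.96 or more in LKO mice on HFD, and Cyp7b1 is at 20.4 to 50.9 and 66.9 to 120 in the same groups.

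The protein-coding genes within 1 Mb of either end of the cluster were read for a change that reaches beyond the Mup genes. Of 29, 20 were tested, and between LKO and FF 0 were called on CD (1 at an unadjusted p under 0.05 in limma) and 0 on HFD (5). Of all 11090 genes tested, 851 on CD and 2145 on HFD were under that p. The median log2 fold changes of the 20 were 0.03 and 0.07, close to those of all genes. Hsdl2, which encodes a hydroxysteroid dehydrogenase-like protein of peroxisomes and lies at chr4:59581563-59618689, rose in FF mice on HFD from 16.7 to 24.4 RPKM on CD to 36.9 to 49.3 (log2 fold change 1.03 ± 0.16, adjusted p = 0.000331), the opposite of the Mup genes. Ugcg, the glucosylceramide synthase gene, differed by 0.51 ± 0.15 between LKO and FF mice on HFD (adjusted p = 0.0678) and Hdhd3 by 0.27 ± 0.15 (adjusted p = 0.322).

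The genes whose pattern was most like that of the summed 8 Mup genes were found by Pearson's r of log2(RPKM + 1) over the 18 mice, among 11068 tested genes outside the family. They were Cyp7b1 (r = 0.95), Cadm4 (0.93), Serpina1e (0.91), H13 (0.91) and C6 (0.90). The mice share 4 group means, and after these were subtracted r was 0.75, 0.70, 0.70, 0.65 and 0.64. The lowest were Slc16a7 (-0.95), Mpc1 (-0.93) and Bche (-0.93). These r values are descriptions, chosen as extremes of many genes.

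Cyp7b1, the oxysterol 7α-hydroxylase, was at 108 to 163 RPKM in FF and 42.6 to 66.4 in LKO mice on CD, and at 20.4 to 50.9 in FF and 66.9 to 120 in LKO mice on HFD. Serpina1e, an alpha-1-antitrypsin gene, was at 3169 to 5356 and 312 to 1125 on CD, and at 17.5 to 190 and 1301 to 1867 on HFD. C6, a complement component, was at 82.7 to 118 and 38.8 to 75.7 on CD, and at 17.0 to 37.6 and 71.3 to 98.2 on HFD. In all 3, FF was above LKO on CD and below it on HFD without overlap. The Mup sum by which they were picked has that order too, so this is not a separate result. Slc16a7, a monocarboxylate transporter, had the reverse order, at 4.06 to 5.12 and 7.22 to 10.3 on CD and 8.41 to 14.1 and 6.34 to 7.72 on HFD. After the group means were subtracted, the highest r were those of Serpine2 (0.79), Tmie (0.76), Crygn (0.76), Cyp7b1 (0.75) and Tcf7l2 (0.75).

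Among themselves the 8 genes varied together to unequal degrees. With group means subtracted, r over the 18 mice was 0.80 for Mup15 and Mup17, 0.78 for Mup7 and Mup15, 0.71 for Mup3 and Mup21 and 0.68 for Mup20 and Mup21. It was -0.37 for Mup17 and Mup20 and -0.20 for Mup1 and Mup2. The pairs share libraries, and the near-identical ones share reads.

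Markers of the cell types of the liver were read in the same mice. The summed RPKM of 7 hepatocyte markers was 31890 to 39603 in FF and 38722 to 48995 in LKO mice on CD, and 34698 to 44430 in FF and 37657 to 45601 in LKO mice on HFD. Of the 7, Apoa1 and Cps1 were called lower in FF mice on HFD than on CD, and Apoa1 and Fgb higher in LKO than in FF mice on HFD. The 5 endothelial markers summed to 12.8 to 27.8 and 10.3 to 28.2 on CD and to 31.2 to 49.7 and 26.7 to 33.4 on HFD in FF and LKO mice, and 3 of 5 were called higher on HFD in FF mice. The 9 Kupffer cell and leukocyte markers summed to 41.1 to 59.8 and 35.1 to 56.7 on CD and to 50.9 to 99.0 and 50.3 to 95.7 on HFD, and 2 of 7 tested were called higher on HFD in FF mice. Of all 11090 genes tested, 567 were called higher and 165 lower on HFD in FF mice. Between LKO and FF on HFD, 100 were called higher and 130 lower.

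The 6 stellate cell and fibroblast markers summed to 57.6 to 81.0 in FF and 57.9 to 98.5 in LKO mice on CD, and to 72.9 to 112 and 49.9 to 99.4 on HFD. Col1a1 and Col3a1 were called higher in FF mice on HFD than on CD and lower in LKO than in FF mice on HFD. The 4 cholangiocyte markers summed to 1.10 to 5.03 over all mice. Ly6g of neutrophils was at 0 in every mouse of the 3 groups other than LKO on HFD, Adipoq, Retn and Lep of fat summed to at most 1.15 RPKM, and Ckm, Acta1 and Myh4 of muscle to at most 1.12. None of the tested markers was called between LKO and FF on CD (4 at an unadjusted p under 0.05 in limma, beside 851 of all 11090 genes). The part of the markers called in the other comparisons in the Mup results was not tested.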

How the data were processed

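RNA of 18 mouse livers was sequenced by the authors. The labels name a small RNA library protocol and then a standard RNA-seq one, and the submitters' processing notes list HISAT2 2.0.4, Partek and mm10. The authors deposited 1 RPKM value per gene symbol and mouse, with no counts, and how reads with several matching genes were handled is not given in the sources used here. Values were used as deposited, with no rows from outside the 18 samples.

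Genes whose RPKM averaged 0.5 or more over the mice were fitted in R 4.3.3 by limma 3.58.1 (moderated, with a variance trend). Each group had 1 coefficient, and the scale was log2(RPKM + 1), so that fold changes of low genes are understated. P-values are two-sided and Benjamini-Hochberg adjusted over the 11090 genes tested. A gene was called at an adjusted p under 0.05 and a fold change over 1.5. The script was tested on simulated data. The study's methods name the t-test and ANOVA in general, and limma was used because it shares the spread over genes.

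The members and lists were chosen with earlier results of these data known. Named were all 8 genes, each regulator, lipocalin or flanking gene that was called, up to 3 per list that differed most between the genotypes on HFD, the 3 most abundant other Mup genes, and the genes most and least like the Mup sum.

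Depth was recovered from RPKM steps of single-exon genes below 0.2 RPKM, where whole reads were accepted within 0.01 of a read. It gives approximate reads per value, and 1 of the 396 Mup values was under 1 read. Transcripts and positions came from GENCODE (GRCm38) and promoters from RefSeq (GRCm38.p6). Coding sequences were aligned in pairs. Alternatives were a pseudocount of 0.1, other filters and scalings, only the groups compared, no variance moderation, the replicate block, and each mouse left out.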

Additional observations from a re-analysis of the deposited data

Results flagged for a closer look

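The RPKM of Mup20 in LKO mouse 4 on CD was 5577, against 8989 to 9136 in the other 3 mice of its group, a gap that stands out by Dixon's test. It was the only such value among the 36 combinations of a group and a gene or the sum that were tested, and chance marks about 1 in 20. This mouse also had the lowest Mup21, Mup7, Mup1, Mup15 and Mup17 of its group. Without it, the log2 fold change of Mup20 between LKO and FF on CD was -0.74.

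The diet response, as log2 fold change of HFD against CD, was called higher in LKO than in FF mice for 5 of the 8 genes. This is the limma interaction term, which was called above 0 for 0.947% of all genes tested. For Mup7 the response in LKO mice exceeded that in FF mice by 6.40, for Mup15 by 4.92, for Mup17 by 4.63, for Mup21 by 2.96 and for Mup20 by 2.24. Of the 14 other Mup genes, 6 were called above 0. Mup6, the most distinct of them in transcript, was among these and gave 2.98. The part of shared reads in their values was not tested. The 8 genes were listed with the interaction in view, so nothing is read from their calls.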

How the results depend on the processing

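Over the 8 genes, 5 comparisons and all alternatives, 1152 fold changes were recomputed: 1107 kept their direction and call, 27 lost a call, 13 gained one and 5 changed sign. The sign changes were those of HFD against CD in LKO mice without 1 mouse, for Mup1 (-1.27 to 1.02) and Mup3 (-0.207 to 0.0745). Without a filter on low values, calls of the 8 genes fell to 0 between LKO and FF on CD, 1 on HFD and 3 for the interaction, and without variance moderation to 0 on CD and 3 for the interaction. Why these calls were lost was not tested. Without 1 mouse the calls were 0 to 3 on CD, 2 to 3 on HFD, 5 to 7 for diet in FF mice, 0 for diet in LKO mice and 3 to 5 for the interaction. The near-identical copies as 1 sum, chosen after seeing the data, gave log2 differences of -2.51, -2.76, 0.97 and 3.72 for genotype on CD, diet in FF, diet in LKO and the interaction, against -1.04, -1.66, 0.35 and 2.01 for the 8 genes. Summing all Mup symbols changed no direction.

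Among the regulators, lipocalins and flanking genes, LKO against FF on HFD called 3 genes, 1 without a filter, 1 without moderation and 1 to 4 without 1 mouse. Diet in LKO mice called 1, 3 by adjusted p alone, 0 after quantile normalization, 2 with the replicate block and 0 to 2 without 1 mouse. The interaction called 0, 2 after rescaling to equal sums, 3 when the Mup genes were left out of the sums, 2 after centring on the median, 1 at a pseudocount of 0.1, 3 after quantile normalization and 0 to 2 without 1 mouse. The cause was not tested. Mice of different groups with the same replicate number had r of deviations of -0.17 to 0.33 (median 0.05). Those with different numbers had -0.35 to 0.39 (median -0.01), and 5 of 18 mice correlated best with a mouse of their own number. These r values cannot tell whether such mice shared more than the number. With the replicate block the 8 genes gave 2, 2, 7, 0 and 5 calls, and all genes 26, 223, 789, 166 and 294, against 25, 230, 732, 141 and 271.

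Over all genes, calls moved by more than 1.5 times between LKO and FF on CD (25) to 12 without a filter, 6 without moderation and 11 to 45 without 1 mouse, and on HFD (230) to 466 by adjusted p alone, 152 without a filter, 145 without moderation and 132 to 318 without 1 mouse. Diet in FF mice (732) gave 2287 by adjusted p alone and 1254 at a pseudocount of 0.1. Diet in LKO mice (141) gave 449 and 272 under these, 88 after centring, 87 after quantile normalization, 47 without a filter, 53 without moderation, 40 in only the groups compared and 17 to 237 without 1 mouse. The interaction (271) gave 411 after rescaling, 169 without a filter, 167 without moderation and 156 to 392 without 1 mouse. Higher against lower calls of diet moved from 567 and 165 in FF mice to 410 and 236 after centring and 423 and 224 after quantile normalization, and from 107 and 34 in LKO mice to 40 and 48, and 48 and 39. After rescaling, the split moved from 10 and 15 to 16 and 15 on CD, from 100 and 130 to 83 and 167 on HFD, and from 105 and 166 to 112 and 299 for the interaction (157 and 163 with the Mup genes left out of the sums).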
